A study of Homo sapiens with 6 samples.

Results

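Epithelial-mesenchymal transition, or EMT, is the programme by which epithelial cells loosen their junctions and take on features of motile mesenchymal cells. Its transcription factors SNAI1, SNAI2, TWIST1, ZEB1 and ZEB2 and 5 genes often used as mesenchymal markers, VIM, CD44, TAGLN, CAV1 and CAV2, were described here in a pair of breast carcinoma cell lines. They were taken by gene name, as every probe set annotated to one of them, which gave 10 genes of 11963 measured and 22 probe sets of 22215. No probe set was shared with another gene.

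RNA was measured on 6 Affymetrix arrays. SUM44 cells, labelled as tamoxifen sensitive, were exposed in 3 cultures for 24 hours to 4HT (4-hydroxytamoxifen, which the body makes from tamoxifen) at 500 nM. LCCTam cells, labelled as tamoxifen resistant, were kept without 4HT for 14 days in 3 cultures. Both lines are labelled as invasive lobular carcinoma with estrogen and progesterone receptors, and both were grown in the same medium. LCCTam is known as a line selected from SUM44 under the drug, so each group stands for 1 line. Cell line and drug exposure differed together and cannot be told apart. Levels are on the log2 scale, every difference is the LCCTam mean minus the SUM44 mean, and genes at an adjusted p under 0.05 by limma's moderated test are called.

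SNAI1 and SNAI2 are zinc finger repressors, ZEB1 and ZEB2 are repressors with zinc fingers at both ends of the protein, and TWIST1 is a basic helix-loop-helix factor. SNAI and ZEB proteins bind E-boxes in promoters of epithelial genes, of which CDH1 (E-cadherin) is the classical example. Lobular breast carcinomas are known for loss of E-cadherin while they stay luminal in type. Vimentin, encoded by VIM, is the intermediate filament of mesenchymal cells, CD44 is a surface receptor of hyaluronan with many splice forms, TAGLN (transgelin) binds actin, and CAV1 and CAV2 (caveolins) coat the membrane pits called caveolae.

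The promoters of 2 members are shown, CD44 because it had the most probe sets that differed between the lines, and ZEB1 because it alone among 6 members with an entry in the RefSeq promoter table held an E-box of the form CACCTG or CAGGTG. Each is the 250 bases before the transcription start in GRCh38.p14, on the plus strand, 5′ to 3′. Only the first entry per gene was searched, here and for all promoters counted below, so other starts of a gene are not covered. Capitals mark that E-box and the GC box (GGGCGG or CCGCCC), both searched on both strands, and the matches did not overlap.
CD44, chr11:35138921-35139170: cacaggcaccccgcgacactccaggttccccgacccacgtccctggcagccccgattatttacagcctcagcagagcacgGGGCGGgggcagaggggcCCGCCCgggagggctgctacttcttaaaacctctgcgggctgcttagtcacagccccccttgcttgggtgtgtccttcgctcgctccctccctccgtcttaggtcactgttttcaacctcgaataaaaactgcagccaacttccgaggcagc
ZEB1, chr10:31318167-31318416: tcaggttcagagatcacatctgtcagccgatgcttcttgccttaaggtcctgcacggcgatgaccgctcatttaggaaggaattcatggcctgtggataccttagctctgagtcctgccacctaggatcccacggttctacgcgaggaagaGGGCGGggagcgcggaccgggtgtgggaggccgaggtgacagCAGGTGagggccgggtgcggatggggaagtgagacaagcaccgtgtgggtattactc
The E-box of ZEB1 began 57 bases before the start, and its GC box 99 bases before. CD44 held no such E-box and 2 GC boxes, at 170 and 152 bases before the start. Of 27305 promoters of this length, 17.5% held the E-box and 42.3% the GC box, so neither match is rare. The other promoters with an entry, of ZEB2, VIM, CAV1 and CAV2, held no such E-box.

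Members of the EMT programme that differed between the lines did so in both directions. Of the 10 members, TWIST1 was higher in LCCTam, SNAI1 and CD44 were lower, and 7 were not called. The median difference over the 10 was -0.01, beside 0.08 over all genes. Of all genes 15.8% were called, 9.18% higher and 6.6% lower, so 3 members of 10 is not by itself a result about the group. The arrays of the groups did not overlap for the same 3 members, beside 35.4% of all genes. Of the 22 probe sets, 7 were called, beside 13.5% of all probe sets. The probe set of TWIST1 was higher, and the 6 lower ones were that of SNAI1 and 5 of CD44, beside 5.96% of all probe sets called lower. Those 5 read the same gene and are not separate results. A mean signal under 5.93, the lower quartile over all genes, was found for 13 of the 22 probe sets, and none of these 13 was called. Such signal is called dim here, because no detection calls were used and it could not be told from background. The dim ones were 2 probe sets of CD44 and every probe set of SNAI2, ZEB1, ZEB2, TAGLN, CAV1 and CAV2.

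**Figure D1:**
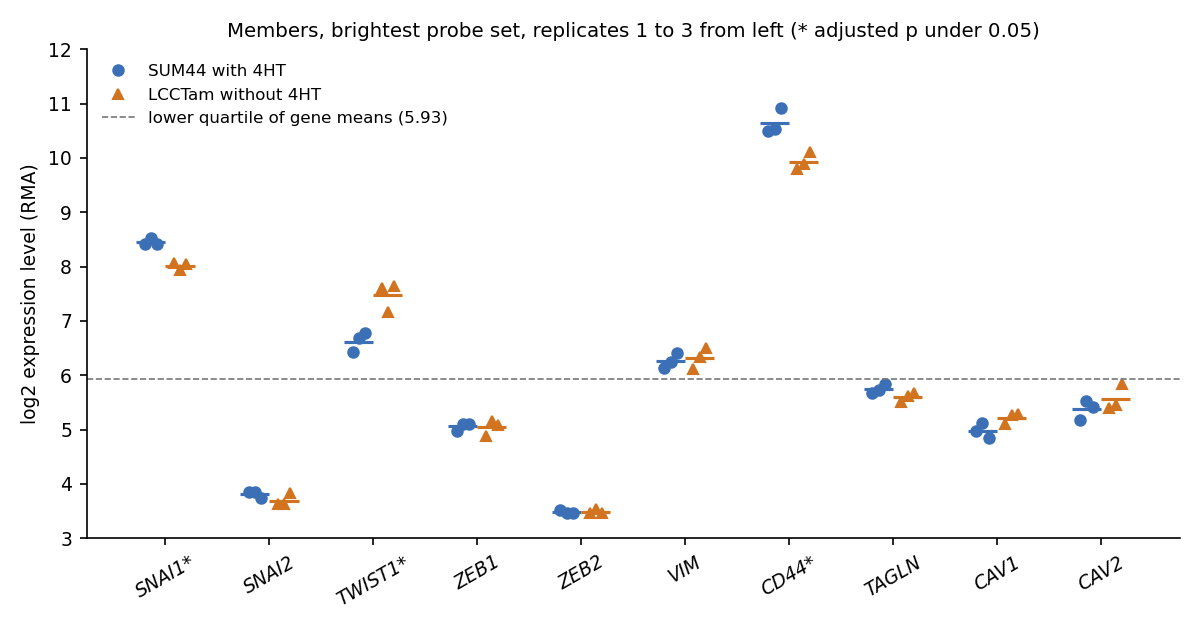
Log2 expression level of the 10 members by their brightest probe set, with 3 SUM44 arrays (circles) and 3 LCCTam arrays (triangles) per gene, horizontal bars at group means and a dashed line at 5.93, the lower quartile of gene means. The groups stand apart for SNAI1, TWIST1 and CD44 and overlap for the other 7 genes, 6 of which lie below the line.

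The arrays of SUM44 lay closer together than those of LCCTam, with correlations over genes of 0.994 to 0.995 and 0.958 to 0.987. Of the LCCTam arrays, replicate 1 lay closest to SUM44 (0.972 to 0.974) and replicate 3 farthest from it (0.923 to 0.941). LCCTam replicate 1 lay closer to every SUM44 array than to LCCTam replicate 3 (0.958). Each called member is given below also without replicate 1. Without replicate 3, TWIST1 differed by 0.76, SNAI1 by -0.46 and CD44 by -0.81 (adjusted p = 0.0229, 0.0269 and 0.0114 by limma). Why the LCCTam arrays differed was not tested. Poly-A spike-in controls, added to each RNA before labelling, averaged 6.70 to 7.15 in SUM44 and 7.12 to 7.74 in LCCTam, and their part in the results was not tested. The luminal markers chosen for the label check averaged 11.25 to 11.40 in SUM44 and 11.09 to 11.14 in LCCTam, and none of 10 was dim. Of these, 8 were called, 80% beside 15.8% of all genes. The 3 higher were GATA3, XBP1 and SPDEF. The 5 lower were KRT8, KRT18, KRT19, ELF3 and the estrogen receptor gene ESR1 (-1.40, adjusted p = 0.0109 by limma). None of 8 myoepithelial, 10 fibroblast, 9 endothelial and 8 leukocyte markers was called by limma, and 0, 0, 0 and 1 of them had an unadjusted p under 0.05. Mean levels of fibroblast markers ran from 5.82 to 5.94 in SUM44 and from 5.83 to 6.10 in LCCTam, and 5 of the 10 were dim. Leukocyte markers averaged 5.99 to 6.16 in SUM44 and 5.96 to 6.20 in LCCTam, and 2 of the 8 were dim. The highest of these was CD3E, at 7.12 in SUM44 and 7.27 in LCCTam. A level above the dim cut is thus not shown to lie over background. In a culture measured in bulk, fewer cells with a transcript and less of it per cell cannot be told apart.

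TWIST1 was the only transcription factor of the 5 called higher in LCCTam. Its level was 6.42, 6.68 and 6.77 in SUM44 replicates 1, 2 and 3 and 7.60, 7.16 and 7.65 in LCCTam. All LCCTam arrays lay above all SUM44 arrays, with the gap set by SUM44 replicate 3 and LCCTam replicate 2. The means were 6.62 ± 0.18 (SD, n = 3) and 7.47 ± 0.27, a 1.8-fold difference (0.85 ± 0.16 SE, adjusted p = 0.0136 by limma). The 95% interval ran from 1.38-fold to 2.34-fold. The factor was measured by 1 probe set, below the median gene mean of 7.11 in SUM44 and above it in LCCTam. Its SUM44 mean lay below that of the leukocyte marker CD3E (7.12), so signal over background was not shown there. TWIST1 was no longer called when SUM44 replicate 1 was left out (0.75, adjusted p = 0.064) or SUM44 replicate 2 (0.88, adjusted p = 0.0522). Over the alternatives its adjusted p lay between 0.00702 and 0.064. Array weights, which put nearly all LCCTam weight on 1 array, are left out of this range. Without LCCTam replicate 1 the difference was 0.79 (adjusted p = 0.00702).

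SNAI1 differed in the other direction and by less. It stood at 8.42, 8.52 and 8.42 in SUM44 replicates 1, 2 and 3 and at 8.06, 7.93 and 8.05 in LCCTam. The spread within each line was small, with SDs of 0.06 and 0.07 (n = 3), and the groups did not overlap. SNAI1 was 1.36-fold lower in LCCTam (-0.44 ± 0.10 SE, adjusted p = 0.024 by limma). Leaving out any SUM44 replicate or LCCTam replicate 2 ended the call, with adjusted p of 0.0883, 0.103 and 0.0888 for the SUM44 arrays in turn and 0.113 for the LCCTam array. The difference then ran from -0.46 to -0.40. The adjusted p ranged from 0.00867 to 0.113 over the alternatives other than array weights. The difference was -0.46 without LCCTam replicate 1 (adjusted p = 0.0124).

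SNAI2, ZEB1 and ZEB2, the other EMT repressors, gave dim signal in both lines. SNAI2 (also known as Slug) stood at 3.85, 3.85 and 3.73 in SUM44 and 3.62, 3.62 and 3.83 in LCCTam, and the groups overlapped (-0.12 ± 0.11 SE, adjusted p = 0.498). ZEB2 lay between 3.46 and 3.53 on all arrays, against a lowest value on any array of 3.16. Its means were 3.48 in each line (95% interval of the difference -0.21 to 0.22).

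ZEB1 was measured by 3 probe sets, all dim. The brightest stood at 4.97, 5.10 and 5.10 in SUM44 and 4.88, 5.15 and 5.09 in LCCTam, and the others had means of 3.99 and 3.98, and of 3.40 and 3.37. All 3 differed by 0.03 or less in size and none was called. For the brightest probe set the 95% interval was -0.28 to 0.24. The signs for ZEB1 and ZEB2 changed between alternatives and are not read. These intervals bound the signal. For transcripts near background they do not bound the change in the cells.

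**Figure D2:**
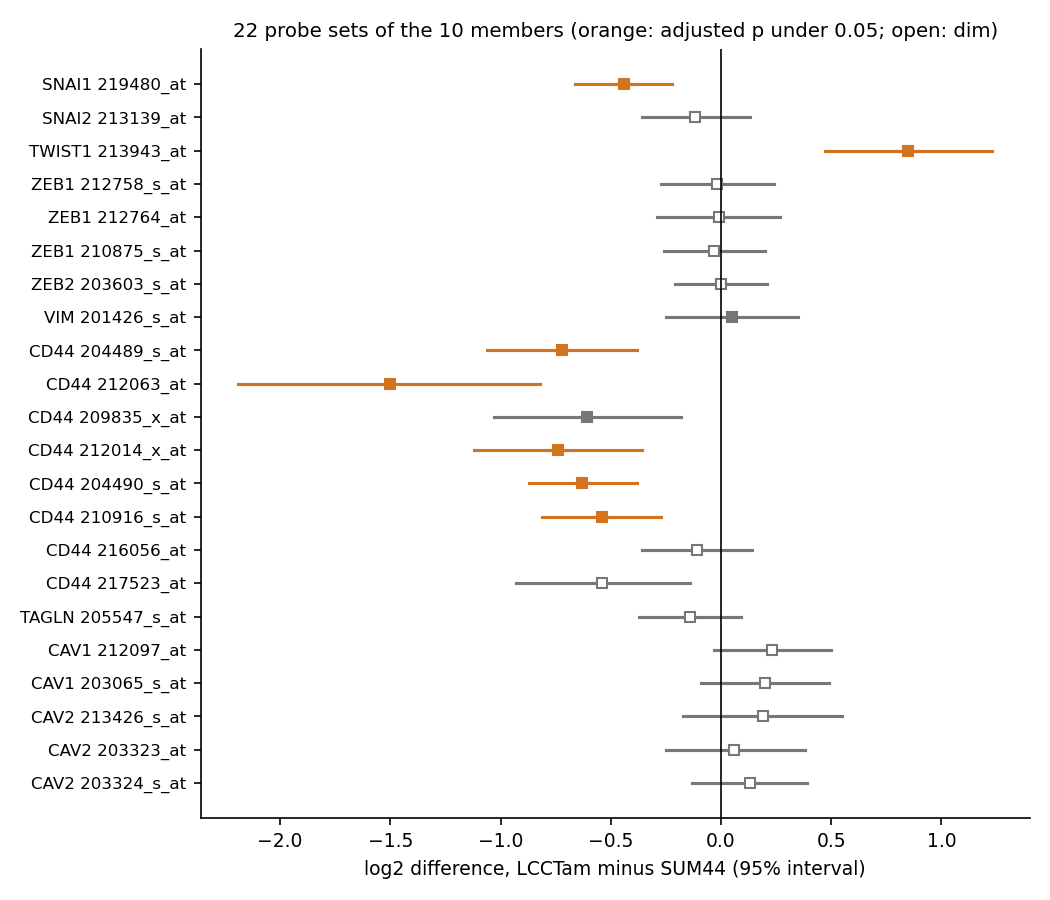
Log2 difference, LCCTam minus SUM44, of the 22 probe sets with its 95% interval from limma, in orange where the adjusted p was under 0.05 and with an open square where the signal was dim. The intervals of SNAI1, TWIST1 and all but 1 of the 8 CD44 probe sets lie off 0, and those of the other 12 probe sets include it.

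CD44 was lower in LCCTam in most of what the array measured of it. The brightest of its 8 probe sets, 204489_s_at, stood at 10.50, 10.53 and 10.91 in SUM44 replicates 1, 2 and 3 and at 9.79, 9.88 and 10.10 in LCCTam. The groups did not overlap, and replicate 3 was the highest array of each. The means were 10.65 ± 0.23 (SD, n = 3) and 9.93 ± 0.16, a 1.65-fold lower level (-0.72 ± 0.15 SE, adjusted p = 0.0171 by limma). Leaving out SUM44 replicate 2 (-0.78, adjusted p = 0.0511), SUM44 replicate 3 (-0.59, adjusted p = 0.0647) or LCCTam replicate 2 (-0.70, adjusted p = 0.0787) ended the call. Its adjusted p lay between 0.00509 and 0.0787 under the alternatives other than array weights. Without LCCTam replicate 1 it was -0.65 (adjusted p = 0.01). With the mean of the 8 probe sets the difference was -0.67 (adjusted p = 0.00509).

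All 8 CD44 probe sets had lower means in LCCTam and 7 of them did not overlap between the lines, beside 33.1% of all probe sets. These 8 read the same gene on the same arrays and are not separate results. The 6 bright ones shared the direction, and 5 of them were called when all probe sets were tested. Among these, 4 lay close together, at -0.54 ± 0.11 SE (210916_s_at), -0.63 ± 0.10 (204490_s_at), -0.72 ± 0.14 (204489_s_at) and -0.74 ± 0.16 (212014_x_at), with adjusted p of 0.0224, 0.00946, 0.0187 and 0.0259 by limma. All 4 lost their calls when SUM44 replicate 1 (adjusted p from 0.0508 to 0.1), SUM44 replicate 3 (0.0546 to 0.1) or LCCTam replicate 2 (0.0558 to 0.114) was left out, and 204489_s_at also without SUM44 replicate 2 (0.0538). The sixth bright one, 209835_x_at, differed by -0.61 ± 0.18 (adjusted p = 0.0697). The names ending in x_at mark probe sets that may bind related sequences. The 2 dim probe sets, 216056_at and 217523_at, differed by -0.11 (adjusted p = 0.545) and -0.54 (adjusted p = 0.0829).

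The fifth called probe set, 212063_at, gave a larger difference, -1.50 ± 0.29 SE, or 2.83-fold lower (adjusted p = 0.0168 by limma among all probe sets). It stood at 11.03, 10.81 and 11.07 in SUM44 and at 9.92, 9.76 and 8.72 in LCCTam replicates 1, 2 and 3. LCCTam replicate 3 was its lowest array, while it was the highest LCCTam array for each of the other 5 bright probe sets. The log2 value of 212063_at minus the mean of those 5 was 1.08, 1.02 and 0.89 on the SUM44 arrays and 0.68, 0.53 and -0.78 on the LCCTam arrays. Levels of different probe sets are not comparable, so only the shift between arrays is read, and it was widest for LCCTam replicate 3. Without that array the difference was -1.13 (adjusted p = 0.0018). Leaving out SUM44 replicates 1, 2 and 3 ended its call (adjusted p = 0.0734, 0.0544 and 0.0764). The spike-in controls stood at 7.12, 7.46 and 7.74 in LCCTam replicates 1, 2 and 3, and the 3′ minus 5′ signal of the ACTB control, a sign of RNA quality, at 0.08, -0.05 and 0.21 (-0.11 to -0.05 in SUM44). The same quantity for GAPDH was 0.00, 0.11 and 0.01 (-0.06 to 0.20 in SUM44). Their part in this was not tested. Which splice forms or transcript ends each probe set reads is not given in the sources used here.

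**Figure D3:**
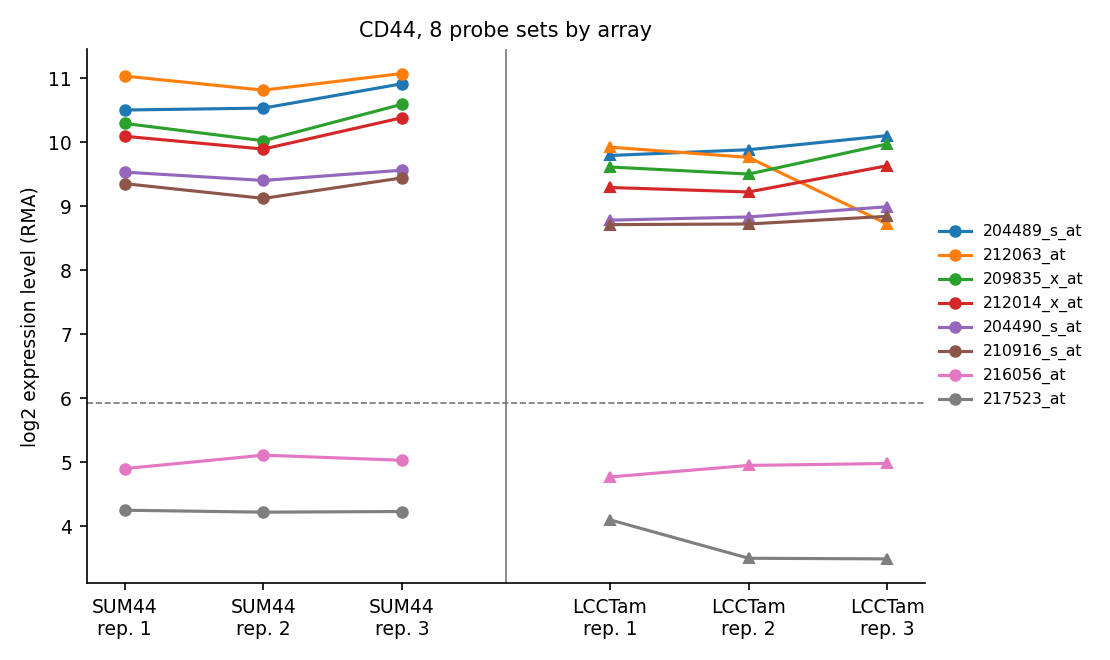
Log2 expression level of each CD44 probe set on 3 SUM44 arrays (circles) and 3 LCCTam arrays (triangles), with lines joining values of 1 probe set and a dashed line at 5.93. The 6 bright probe sets are lower in LCCTam, and 212063_at departs from the other 5 in LCCTam replicate 3, at 8.72.

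VIM, the marker most used for the mesenchymal state, did not differ beyond the spread of the arrays. It stood at 6.14, 6.25 and 6.40 in SUM44 and 6.12, 6.33 and 6.50 in LCCTam, values that overlapped and lay just above the dim range. The difference was 0.05 ± 0.13 SE (adjusted p = 0.817), with a 95% interval from -0.25 to 0.36, which leaves out rises above 1.28-fold in its signal. After cyclic loess the sign turned (-0.04). The leukocyte marker CD3E lay above VIM (7.12 in SUM44 and 7.27 in LCCTam), so signal of VIM over background was not shown. TAGLN, at 5.75 ± 0.07 (SD, n = 3) and 5.60 ± 0.09, differed by -0.14 ± 0.10 SE (adjusted p = 0.394), and the signal was dim.

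The caveolin genes CAV1 and CAV2, which lie side by side on chromosome 7 with no coding gene between them, gave dim signal in all 5 of their probe sets. CAV1 stood at 4.98, 5.12 and 4.84 in SUM44 and 5.10, 5.26 and 5.29 in LCCTam, and the groups overlapped by a small margin (0.23 ± 0.12 SE, adjusted p = 0.222). Its dimmer probe set gave 0.20 (adjusted p = 0.348). CAV2 stood at 5.17, 5.53 and 5.41 in SUM44 and 5.40, 5.45 and 5.84 in LCCTam (0.19 ± 0.16 SE, adjusted p = 0.446), and its other probe sets gave 0.06 and 0.13. None of the 5 was called, and the median difference over all genes was 0.08.

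The genes nearest to each called member in pattern were sought as those with the smallest root mean square difference over the 6 arrays, after each gene was centred on its own mean. For TWIST1 they were BHLHE40, a helix-loop-helix repressor (0.08), MAT2A, which makes S-adenosylmethionine (0.11), and DDIT3, a stress-induced transcription factor (0.11). For SNAI1 they were the lipid phosphatase gene PLPP1 (0.04), HHIPL2 (0.05) and OAS1, an interferon-induced enzyme (0.05). For CD44 they were the secretoglobin gene SCGB2A1 (0.07), with a dim signal, CKAP4, a membrane protein of the endoplasmic reticulum (0.09), and ADGRB2, an adhesion receptor (0.09). These distances describe 6 arrays in which much of the spread is the difference between the lines.

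Other genes of the programme were read from 7 lists. Of 33 measured EMT transcription factors beyond the members, 4 were higher in LCCTam, none was lower and 29 were not called, 12.1% beside 15.8% of all genes, and 7 had an unadjusted p under 0.05. ID2, an inhibitor of helix-loop-helix factors, rose by 1.15 ± 0.11 SE (adjusted p = 0.000961 by limma). SOX9, a factor of progenitor cells, rose by 0.98, TCF3, the partner of helix-loop-helix factors such as TWIST1, by 0.83, and TEAD4, the DNA-binding partner of YAP1, by 0.70. The list's median difference was 0.16. Called members numbered 3 without each SUM44 replicate and without LCCTam replicate 2, fits that called 6.28% to 7.22% of all genes. Without LCCTam replicate 1 there were 10, 8 higher and 2 lower, where 35.5% of all genes were called. In the fits with 3, 1 gene fewer was called than with all arrays. TEAD4 was the gene that lost its call (adjusted p = 0.0605, 0.071, 0.0767 and 0.0578 without SUM44 replicates 1, 2 and 3 and LCCTam replicate 2).

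Further mesenchymal markers, 50 in number, moved in both directions. SPARC, FN1, ITGA5 and THBS1 were higher (4 genes), GJA1 and FBLN1 lower (2 genes), and 44 were not called. The called share was 12%, beside 15.8% of all genes, and the median 0.11. SPARC, a secreted matrix glycoprotein, stood at 6.53, 6.22 and 6.76 in SUM44 and 10.36, 10.40 and 10.44 in LCCTam (3.89 ± 0.15 SE, adjusted p = 1.14e-05 by limma). FN1 (fibronectin) rose by 0.96 (adjusted p = 0.0108). Of its 5 dimmer probe sets, 3 were called and the others gave 0.25 and -0.13. GJA1, the connexin of many mesenchymal and basal cells, stood at 10.29, 9.76 and 10.38 in SUM44 and 8.31, 6.89 and 6.03 in LCCTam replicates 1, 2 and 3. Its difference of -3.07 ± 0.51 SE (adjusted p = 0.00818) thus differed in size between LCCTam arrays.

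CDH2 (N-cadherin), the cadherin that replaces E-cadherin in EMT, differed by 0.15 ± 0.15 (adjusted p = 0.537). FN1 lost its call without SUM44 replicates 2 and 3 (adjusted p = 0.053 and 0.0589, range 4.96e-06 to 0.0589). FBLN1, a matrix protein that differed by -0.68 (adjusted p = 0.0201), lost it when SUM44 replicate 2 or 3 or LCCTam replicate 2 was left out (adjusted p = 0.0706, 0.0888 and 0.0512). Averaging its probe sets also ended it (-0.29, adjusted p = 0.137, range 0.000311 to 0.137). With 1 array left out, the list had 4, 3 and 2 called genes for the SUM44 replicates in turn and 11, 3 and 6 for the LCCTam replicates. Of all genes, those fits called 6.73%, 7.22% and 6.28%, and 35.5%, 6.33% and 14.8%. THBS1 then stayed called only without LCCTam replicate 1 or 3 (adjusted p = 0.0362 and 0.0161), and ITGA5 lost its call without SUM44 replicate 1 or 3 or LCCTam replicate 2 (adjusted p = 0.069, 0.0722 and 0.0684).

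Among 26 actin-binding and contractile proteins related to TAGLN, 6 were higher, 3 lower and 17 not called, 34.6% beside 15.8% of all genes. Only 4 of the 26 were dim. A fit of the genes above the median of gene means alone called 29.2% of those genes. The part of brightness in the list's share was not tested. ACTN4 (alpha-actinin 4, a crosslinker of actin) rose from 7.55 ± 0.15 (SD, n = 3) to 9.71 ± 0.03, 4.47-fold (adjusted p = 5.67e-05 by limma). MYH9, a non-muscle myosin, rose by 0.83, and TAGLN2, the paralog of TAGLN, by 0.79. CNN3, the calponin of non-muscle cells, was 5-fold lower in LCCTam (-2.32 ± 0.26 SE, adjusted p = 0.00171), at 10.72, 10.81 and 11.02 in SUM44 and 8.94, 8.76 and 7.88 in LCCTam. VCL (vinculin) fell by 0.41 (adjusted p = 0.0266).

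The smooth muscle markers ACTA2 and CNN1 differed by 0.20 (adjusted p = 0.386, dim) and 0.32 (adjusted p = 0.187), and both were called without LCCTam replicate 1, at 0.34 (adjusted p = 0.0463, from 0.0046 to 0.745 under the alternatives) and 0.42 (adjusted p = 0.0438, from 0.00689 to 0.501). VCL lost its call without each SUM44 replicate and LCCTam replicate 2 (adjusted p = 0.102, 0.0842, 0.12 and 0.0967) and when its probe sets were averaged (-0.16, adjusted p = 0.238, range 0.000254 to 0.238). The actin list had 3, 4 and 5 called genes when each SUM44 array was left out in turn, and 15, 3 and 8 for the LCCTam arrays. Of all genes, the same fits called 6.73%, 7.22% and 6.28%, and 35.5%, 6.33% and 14.8%. TAGLN2 lost its call without each SUM44 replicate and LCCTam replicate 2 (adjusted p = 0.0744, 0.058, 0.0618 and 0.072).

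Few caveola partners of CAV1 and CAV2 were called. Of 17 measured, 2 were higher (FLOT1 and STOM), none was lower and 15 were not called. That is 11.8%, below the 15.8% of all genes, with 6 at an unadjusted p under 0.05. FLOT1 (flotillin 1, a membrane raft scaffold) rose by 1.04 ± 0.10 SE (adjusted p = 0.000833 by limma) and STOM (stomatin, a related membrane scaffold) by 2.11 ± 0.23 (adjusted p = 0.00133). One dimmer FLOT1 probe set gave -0.05 (adjusted p = 0.733) and one of STOM 0.21 (adjusted p = 0.284). CAVIN1, the coat protein that caveolae need, differed by 0.20 ± 0.14 (adjusted p = 0.397), and CAVIN2 and CAVIN3 by 0.15 and 0.19 with dim signal. The list's median was 0.20, and 7 genes were called without LCCTam replicate 1, all higher, in a setting that called 35.5% of all genes.

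Of 27 genes of CD44 splicing, hyaluronan binding and cleavage, 4 were higher, 1 lower and 22 not called, 18.5% beside 15.8% of all genes. RBFOX2, a splicing factor active in EMT, rose by 0.88 ± 0.10 SE (adjusted p = 0.00147 by limma), though among its other probe sets 1.05 was called and 0.39 and 0.20 were not. ESRP1, the epithelial splicing factor that keeps variant exons of CD44, stood at 10.13 ± 0.07 (SD, n = 3) and 10.16 ± 0.19 (adjusted p = 0.863). After cyclic loess ESRP1 differed by -0.03. The proteins that tie CD44 to actin differed among themselves. MSN (moesin) rose by 0.93 ± 0.14 SE (adjusted p = 0.00576). RDX (radixin), at 8.46, 7.97 and 8.60 in SUM44 and 7.51, 6.22 and 5.86 in LCCTam, was lower (-1.81 ± 0.40, adjusted p = 0.0231). NF2 (merlin), which is not counted among these proteins, rose by 0.45 (adjusted p = 0.0414).

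EZR (ezrin) differed by -0.37 (adjusted p = 0.0684). The last gene called higher was SERPINB1, a protease inhibitor (0.47, adjusted p = 0.0413). RDX lost its call without each SUM44 replicate and LCCTam replicate 2 (adjusted p = 0.0937, 0.0532, 0.0995 and 0.1, range 4.99e-06 to 0.1). Called members of the CD44 list numbered 2 without each SUM44 replicate and LCCTam replicate 2, 13 without LCCTam replicate 1, 4 higher and 9 lower, and 5 without LCCTam replicate 3. Of all genes, those fits called 6.28% to 7.22%, 35.5% and 14.8%. With 1 array left out, NF2 stayed called in the fit without LCCTam replicate 1 alone (adjusted p = 0.0258). SERPINB1 lost its call without each SUM44 replicate and LCCTam replicate 2 (adjusted p = 0.132, 0.114, 0.151 and 0.144).

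Epithelial genes that EMT factors repress moved in both directions. In this list 6 genes were higher, 8 lower and 31 of the 45 not called. That is 31.1% called, beside 15.8% of all genes, with a median of 0.06. Only 8 of the 45 were dim, and 29.2% of genes above the median of gene means were called in a fit of their own. MUC1, a surface mucin (-2.45 ± 0.13 SE), CDH3 (P-cadherin, -1.81 ± 0.12) and the desmosomal cadherin DSG2 (-1.29) were lower, with adjusted p of 6.79e-05, 0.000118 and 0.000445 by limma. AP1M2, an epithelial sorting adaptor, rose by 1.15, RAB25, an epithelial vesicle GTPase, by 0.92 and LSR, a protein of tricellular junctions, by 0.72. CDH1 stood at 6.69, 6.43 and 6.45 in SUM44 and 7.17, 6.68 and 6.35 in LCCTam, and the groups overlapped (0.21 ± 0.20, adjusted p = 0.522). GRHL2, a factor that maintains the epithelial state, differed by 0.16 (adjusted p = 0.379). Leaving out the SUM44 arrays in turn gave 6, 6 and 7 called epithelial genes, and leaving out the LCCTam arrays 25, 6 and 16. Of all genes, those fits called 6.73%, 7.22% and 6.28%, and 35.5%, 6.33% and 14.8%. LSR lost its call without SUM44 replicate 1 or 2 or LCCTam replicate 2 (adjusted p = 0.0903, 0.0847 and 0.0926).

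Among the epithelial genes 29 had a promoter entry, and 12 of those, or 41.4%, held the CACCTG or CAGGTG E-box, beside 17.5% of all promoters. Expression was measured for 11 of the 12. Of these, AP1M2 and RAB25 were higher, MUC1, ELF3 and DSG2 were lower, and 6 were not called, with a median of -0.49. ELF3 lost its call without each SUM44 replicate and LCCTam replicate 2 (adjusted p = 0.0621, 0.0715, 0.0683 and 0.0571). Of the 15 measured ones without the E-box, 2 were higher, 2 lower and 11 not called, with a median of 0.09. Of all genes 15.8% were called, with a median of 0.08. CDH1 had no promoter entry and is in neither set. The difference between these small sets was not tested.

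Of 22 intermediate filament genes related to VIM, 2 were higher, 3 lower and 17 not called, 22.7% beside 15.8% of all genes. The lower ones were keratins of luminal cells, KRT8 (-1.09 ± 0.14 SE, adjusted p = 0.00265 by limma), KRT19 (-0.69, adjusted p = 0.0166) and KRT18 (-0.42, adjusted p = 0.0323), which are also in the epithelial list. The higher ones were the lamins LMNB2 (0.95, adjusted p = 0.00105) and LMNB1 (0.68, adjusted p = 0.0374). KRT19 lost its call without each SUM44 replicate and LCCTam replicate 2 (adjusted p = 0.0734, 0.0504, 0.0818 and 0.0725, range 2.46e-05 to 0.0818), as did KRT18 (adjusted p = 0.126, 0.111, 0.112 and 0.135). LMNB1 lost it in those fits and after cyclic loess (range 0.000102 to 0.133). Called filament genes thus numbered 2 without each SUM44 replicate and LCCTam replicate 2, LMNB2 and KRT8, where 6.28% to 7.22% of all genes were called. They numbered 5 without LCCTam replicate 1 or 3, where 35.5% and 14.8% of all genes were called. With the replicate block they numbered 4, 2 higher and 2 lower, where 18% of all genes were called.

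**Figure D4:**
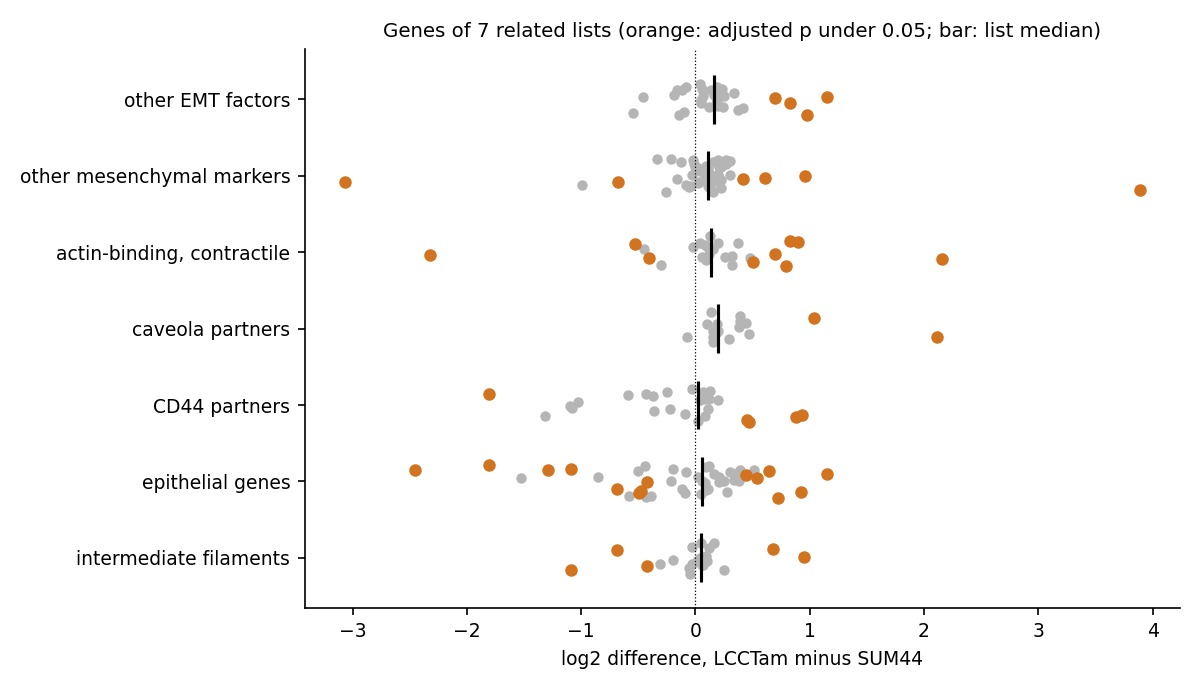
Log2 difference, LCCTam minus SUM44, of each measured gene in 7 lists related to the members, 1 point per gene, orange where the adjusted p was under 0.05, with a bar at the list median. The medians lie between 0.02 and 0.20, beside 0.08 over all genes, and called genes lie on both sides of 0 except among the other EMT factors and the caveola partners.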

How the data were processed

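RNA of 6 cultures was labelled with biotin and hybridised to Affymetrix arrays, per the labels' protocols. The authors ran RMA, per the submitters' processing notes, and the deposited log2 values are its output (background corrected, quantile normalised between arrays, 1 value per probe set). No version is given in the sources used here. Normalisation by quantiles hides a change in total RNA per cell. Values ran from 3.16 to 14.6, and array medians from 6.70 to 6.76.

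Groups came from the titles, which call the arrays biological replicates. P-values therefore reflect variation from culture to culture. Of 22283 probe sets, 68 were controls. One gene was annotated to 19065 probe sets, several to 1043 and none to 2107. Current symbols were matched on gene ID for 19053 of the first, using RefSeq's gene table for GRCh38.p14. The same table gave gene neighbours, and RefSeq's promoter table of that build gave sequences. Each gene was represented by its brightest probe set among those annotated to it alone. The lines were compared in limma 3.58.1 (lmFit and eBayes, under R 4.3.3), two-sided, with Benjamini-Hochberg adjustment over 11963 genes or, for single CD44 probe sets and dimmer probe sets of other genes, over 22215 probe sets. No set test was run.

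Members and lists were chosen with earlier results of these data known. Named genes are the members, the 2 genes with the smallest adjusted p in each direction among called genes of each list, CDH1, CDH2, FN1, SPARC, ESRP1, CAVIN1, GRHL2, CNN1 and ACTA2, and the 3 genes nearest in pattern to each called member. Others were named after their values were seen. Alternatives were averaged probe sets, probe sets as units, a robust fit with a trend on intensity, array weights, cyclic loess, median centring, filters on dim genes (mean above the median of gene means, or log2 of at least 6 throughout a group), leaving out arrays singly, a replicate block, and an adjusted p under 0.01.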

Additional observations from a re-analysis of the deposited data

How the results depend on the processing

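SNAI1, TWIST1 and CD44 kept their direction under every alternative run, and the number of called members was also 3 with averaged probe sets and with the replicate block. It was 5 with array weights, 0 at an adjusted p under 0.01 and 0 to 3 with 1 array left out. For member probe sets it was 3, 1 and 0 to 8 in the same order. The fit of probe sets estimated array weights of its own, which are not given. Shares over all probe sets in these settings are not given either, so the counts of probe sets have no background here. Over all genes those settings called 7021, 723 and 751 to 4241, so the count of 0 at the stricter threshold stands beside 3 members with an unadjusted p under 0.05 in limma. In the fit of genes, array weights were very uneven, at 43.86 for LCCTam replicate 2 and 0.17 for each of the other LCCTam arrays. With them 58.7% of all genes were called. Among these were 21 other EMT factors, 23 mesenchymal markers, 18 actin-binding genes, 10 caveola partners, 19 CD44 partners and 29 epithelial genes. Ranges of adjusted p printed for list genes include this fit, so their lower ends are not read. At an adjusted p under 0.01 there were 2 mesenchymal markers, 3 actin-binding genes, 2 CD44 partners, 6 epithelial genes and 2 filament genes, and the robust trend fit called 3 CD44 partners. Without single arrays the counts ran from 3 to 10, 2 to 11, 3 to 15, 2 to 7, 2 to 13, 6 to 25 and 2 to 5 for the lists of other EMT factors, mesenchymal markers, actin-binding genes, caveola partners, CD44 partners, epithelial genes and filaments. Of all genes, those fits called 6.28% to 35.5%. The stricter threshold lowers counts by construction. For the other settings, including the higher counts without LCCTam replicate 1, the cause was not tested.

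Only genes that were not called turned sign. With single arrays left out ZEB1 ran from -0.07 to 0.06, ZEB2 from -0.02 to 0.02, VIM from -0.04 to 0.15, CDH1 from -0.01 to 0.40 and ESRP1 from -0.07 to 0.12. ZEB1 was 0.09 with array weights, 0.00 without SUM44 replicate 2 or 3 and 0.06 without LCCTam replicate 1. ZEB2 was -0.01 after median centring and -0.00, -0.01 and -0.02 without SUM44 replicates 2 and 3 and LCCTam replicate 2. VIM was -0.04 after cyclic loess and -0.01 and -0.04 without SUM44 replicate 1 and LCCTam replicate 3. CDH1 was -0.01 without LCCTam replicate 1. ESRP1 was -0.02 with array weights, -0.03 after cyclic loess and -0.00 and -0.07 without SUM44 replicate 2 and LCCTam replicate 1. Over 49 named genes, 657 values kept direction and call, 71 lost the call, 7 gained it and 16 turned sign.

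Whether replicate numbers pair the arrays could not be settled. Deviations from the group means correlated at 0.49, 0.35 and -0.05 for same-numbered arrays. LCCTam replicates 1 and 2 correlated best with the same-numbered SUM44 array, and LCCTam replicate 3 with SUM44 replicate 2 (0.49). Deviations of 3 arrays from their mean sum to 0, which ties these values to each other. With the replicate block 2152 genes were called in place of 1888, and 8 member probe sets in place of 7. The dim filters left 2 members above the median of gene means and 4 at log2 of 6 or more. Signal over background is the limit for SNAI2, ZEB1, ZEB2, TAGLN, CAV1 and CAV2. It was also not shown for VIM, CDH1 and CDH2, or for TWIST1 in SUM44. Their means there lay below that of the leukocyte marker CD3E (7.12 in SUM44 and 7.27 in LCCTam).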
